A study of Mus musculus with 6 samples.

Results

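The genes described here encode the enzymes and transporters that take up glucose, break it down to lactate, and store or release it as glycogen, in the forms that skeletal muscle and other tissues use. All 32 genes chosen for these functions were found among the 52369 genes of the expression table, by matching Ensembl identifiers to gene symbols. The rule that chose them uses no measured value, but earlier results of these data were known when it was made. They fall into 13 muscle isoforms, 12 isoforms that are known from most tissues or from other organs, and 7 enzymes with 1 main gene. The muscle class holds the forms taken as the main ones of muscle, and some, such as Aldoa, Ldha, Gys1 and Pfkfb1, are not restricted to it. Each of the 32 passed the filter of a mean of at least 1 FPKM (fragments per kilobase, relative to the depth of the library, a level that can be compared between genes), which left 14788 genes for the tests.

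Glycolysis splits glucose into pyruvate in the cytosol and yields ATP without oxygen, and glycogen is the glucose store that a contracting fibre draws on first. Most steps are catalysed by families of related enzymes made from separate genes, and a maturing muscle fibre exchanges the forms found in most cells for forms found mainly in muscle. Inherited loss of Pfkm, Pygm or Pgam2 in people causes glycogen storage diseases with exercise intolerance.

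RNA was sequenced from tibialis anterior muscle of C57BL/6 mice aged 6 weeks, taken 7 days after regeneration had been started. Both groups, of 3 libraries each, were injured at 5 weeks of age with cardiotoxin, a fibre-destroying toxin from snake venom (50 µl at 10 µM) and then received 6.25 µg of pcDNA3.1 plasmid with a transfection reagent in repeated injections, the last on day 4. The genotype label reads control in the Control group and Linc-smad7 overexpression in the L7 group, Linc-smad7 being a long non-coding RNA. The labels do not say which plasmid the Control muscles received or whether each library is a separate mouse, so p-values measure only the spread between these libraries. A plasmid given by injection reaches an unstated share of fibres, and the level of Linc-smad7 itself was not analysed here.

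Each library held between 19420012 and 24663153 reads in genes. Y-linked genes had 4184, 0 and 4168 reads in Control replicates 1, 2 and 3 and 3185, 0 and 2 in L7. Xist was at 0.054, 92.0 and 0.032 FPKM in Control and 0.10, 90.9 and 40.7 in L7, so the groups were not balanced in sex-linked transcripts. With the presence of Y-linked reads as a covariate in limma, all 32 genes kept their direction. The isoform ratios were not tested with it. L7 replicate 3 stood apart: it correlated with the other libraries at r = 0.920 to 0.951, its 10 most abundant genes took 14.1% of its reads against 6.57% to 8.40% elsewhere, and it lay below all 5 other libraries in 63.2% of the genes tested and above them in 17.6%. Markers of adult fast fibres were abundant, with Mylpf at 8871 ± 731 FPKM and Acta1 at 8169 ± 2123 in Control (SD, n = 3 libraries, as for each ± below unless named SE), while Tnnc2, also on that list, was listed at 1.62 ± 0.58. The summed level of the 18 fibre markers ran from 27599 to 38356 FPKM in Control and was 40265, 44022 and 117828 in L7 replicates 1, 2 and 3. In bulk tissue, fewer cells of a type and less RNA per cell cannot be told apart. The class, pair and list results are therefore given with and without L7 replicate 3.

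In these muscles the 13 muscle isoforms all had a higher mean in L7 than in Control, the 7 enzymes with 1 main gene did too, and 10 of the 12 isoforms of other tissues had a lower mean. None of these differences passed limma, a linear model fitted to log2(FPKM + 1) of all 14788 genes with Benjamini-Hochberg adjustment: 0 of 32 genes had an adjusted p under 0.05, against 0.0% of all genes, and the smallest adjusted p among them was 0.580. At an unadjusted p under 0.05 limma had Pgam2 higher (background 1.65%) and Pfkp lower (background 4.25%), and the adjusted p in the authors' deposited table was 1 for every one of the 32 (0.0284% of its genes are under 0.05). On the log2(FPKM + 1) scale, which understates differences of low genes, the median difference was 0.84 for the muscle isoforms, 0.48 for the enzymes with 1 main gene and -0.37 for the isoforms of other tissues, beside -0.15 for all genes tested, of which 29.2% were higher. Median-of-ratios scaling, which moved the median of all genes to -0.0015, kept the direction of all 32. L7 replicate 3 carried much of the size, since without it the medians were 0.29, 0.12 and -0.18, and the median of the isoforms of other tissues was -0.64 without L7 replicate 1. The 0.12 was the value of Gapdh, a gene whose near-identical pseudogenes held more reads than it in every library. Without L7 replicate 3 the Gapdh ratio of mean FPKM, L7 over Control, was 0.853.

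**Figure D1:**
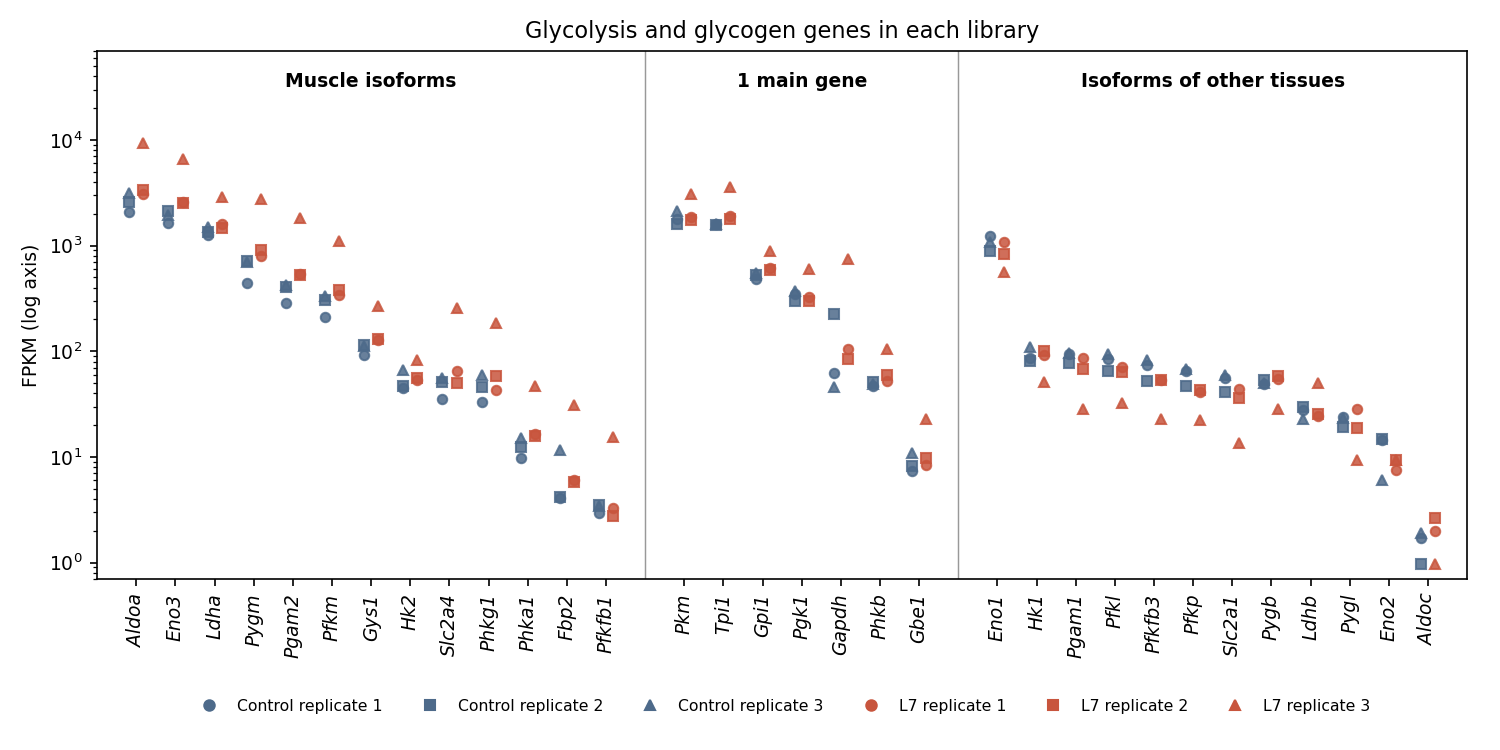
FPKM of each of the 32 genes (log axis) in the 3 Control libraries (blue) and the 3 L7 libraries (red), in panels by class and ordered by mean level, with 1 symbol shape per replicate number. L7 replicate 3 is the red triangle, which is the highest point for all 13 muscle isoforms and all 7 enzymes with 1 main gene and the lowest for 10 of the 12 isoforms of other tissues.

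Glucose enters fibres through Slc2a4, the transporter that insulin and contraction bring to the surface, and through Slc2a1, which most cells carry. Slc2a4 was at 35.3, 51.1 and 56.1 FPKM in Control and 65.2, 50.2 and 257 in L7. Slc2a1 was at 55.9, 41.4 and 60.3 FPKM in Control and 44.3, 36.5 and 13.6 in L7. Both groups overlapped for each transporter, but their order within a library differed: Slc2a1 was above Slc2a4 in Control replicates 1 and 3, and Slc2a4 was above Slc2a1 in Control replicate 2 and in all 3 L7 libraries. The log2 difference was 1.01 ± 0.57 (SE) for Slc2a4 (adjusted p = 0.580, limma) and -0.86 ± 0.41 (SE) for Slc2a1 (adjusted p = 0.580, limma).

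Hexokinase traps glucose by phosphorylating it. Hk1, the form of most tissues, was at 85.9, 81.3 and 109 FPKM in Control and 91.4, 101 and 50.9 in L7. Hk2, the main form of insulin-responsive muscle, was at 44.6, 46.6 and 67.1 FPKM in Control and 53.6, 55.3 and 82.5 in L7. Hk1 was the more abundant transcript per length in 5 of 6 libraries, and only in L7 replicate 3 did Hk2 lie above it. Gpi1, which isomerises the trapped sugar, was at 488, 529 and 547 FPKM in Control and 614, 585 and 894 in L7, with every L7 library above every Control library. Such separation was seen in 5.49% of all genes tested for L7 above Control.

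Phosphofructokinase commits sugar to glycolysis through 3 subunit genes in mouse. Pfkm (chr15:98092589-98132451, plus strand), the muscle subunit, was at 212, 307 and 336 FPKM in Control and 340.2, 379 and 1106 in L7, and all 3 L7 libraries lay above the Control libraries (log2 difference 0.90 ± 0.45 (SE), adjusted p = 0.580, limma). Pfkp (chr13:6579768-6648777, minus strand), the platelet subunit, was at 65.8, 47.4 and 68.0 FPKM in Control and 41.1, 42.6 and 22.4 in L7, and all 3 L7 libraries lay below, as was seen in 13.7% of all genes tested. Its log2 difference was -0.79 ± 0.27 (SE), with an unadjusted p of 0.0219 and an adjusted p of 0.580 in limma. The authors' deposited table marks Pfkp as significant, with a p of 0.0323 and an adjusted p of 1, and it is the only one of the 32 so marked (background 1.13%). Pfkl, the liver subunit, was at 84.0, 65.1 and 93.8 FPKM in Control and 71.2, 63.4 and 32.7 in L7, where L7 replicate 1 overlapped the Control range. Pfkp overlaps the neighbouring gene Pitrm1 in the annotation, and a strand setting for read counting was not given in the sources used here.

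Bifunctional Pfkfb enzymes make and remove the sugar bisphosphate that activates phosphofructokinase. Pfkfb3, the form induced by hypoxia and growth signals, was at 73.7, 52.1 and 82.2 FPKM in Control and 53.7, 54.1 and 23.1 in L7. Pfkfb1, the liver and muscle gene, was at 2.93, 3.54 and 3.43 FPKM in Control and 3.30, 2.77 and 15.5 in L7, so that only L7 replicate 3 left the range of 76 to 112 reads seen elsewhere. Fbp2, the muscle fructose bisphosphatase that runs the opposite reaction to phosphofructokinase, was at 4.10, 4.18 and 11.7 FPKM in Control and 6.06, 5.76 and 31.1 in L7, with Control replicate 3 above L7 replicates 1 and 2.

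Aldolase cleaves the sugar into triose phosphates. Aldoa was the most abundant of the 32 transcripts, at 2071, 2615 and 3118 FPKM in Control and 3076, 3332 and 9444 in L7, and Control replicate 3 lay just above L7 replicate 1. Aldoc, the brain form, rested on 22 to 64 reads per library and was at 1.69, 0.977 and 1.92 FPKM in Control and 1.98, 2.66 and 0.976 in L7. Tpi1, which interconverts the triose phosphates, was at 1608, 1576 and 1606 FPKM in Control and 1892, 1784 and 3563 in L7, with a Control SD of 18.2 around 1597 and every L7 library above.

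Pgk1, which makes the first ATP after the sugar has been split, was at 347, 299 and 375 FPKM in Control and 328, 303 and 605 in L7, and the groups overlapped. Phosphoglycerate mutase follows, as the muscle form Pgam2 or the general form Pgam1. Pgam2 (chr11:5801640-5803733, minus strand, mm10 as for each position of a gene here) was at 286, 404 and 424 FPKM in Control and 540.0, 533 and 1830.3 in L7. Every L7 library lay above every Control library, and the mean was 371 ± 74.6 in Control and 968 ± 747 in L7. The limma difference of 1.14 ± 0.48 (SE) on the log2 scale was the largest of the 32 (unadjusted p = 0.0475, adjusted p = 0.580). Without L7 replicate 3 its mean ratio was 1.45. Pgam1 was at 94.4, 76.8 and 96.5 FPKM in Control and 86.5, 68.7 and 28.3 in L7, with L7 replicate 3 below the rest and L7 replicate 1 inside the Control range.

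Enolase makes phosphoenolpyruvate. Eno3 (chr11:70657202-70662513, plus strand), the muscle form, was at 1644, 2117 and 1946 FPKM in Control and 2580.4, 2554 and 6654 in L7, and all L7 libraries lay above Control (log2 difference 0.90 ± 0.41 (SE), adjusted p = 0.580, limma). Eno1, the form of most cells, was at 1229.9, 888 and 1071 FPKM in Control and 1075, 839 and 567 in L7, and L7 replicate 3 was the lowest. Eno2, the neuronal form, was at 14.4, 14.9 and 6.09 FPKM in Control and 7.53, 9.34 and 9.26 in L7, with Control replicate 3 the lowest of the 6.

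Pyruvate kinase and lactate dehydrogenase end the pathway. Pkm was at 1779, 1593 and 2134 FPKM in Control and 1880.4, 1743 and 3081 in L7, and L7 replicates 1 and 2 lay inside the Control range. Its muscle and general splice forms share the gene and cannot be separated in values per gene. Ldha, which favours lactate formation and is the form of fast muscle, was at 1273, 1348 and 1504 FPKM in Control and 1588, 1468 and 2901 in L7. Ldhb, the heart form, was at 27.5, 30.0 and 22.8 FPKM in Control and 24.7, 25.3 and 49.8 in L7. Ldhb was the only isoform of another tissue for which L7 replicate 3 lay above all 5 other libraries, while all 13 muscle isoforms and all 7 enzymes with 1 main gene showed that, so 21 of 32 did, against 17.6% of all genes tested.

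Glycogen phosphorylase releases glucose units from the store. Pygm (chr19:6384399-6398459, plus strand), the muscle form, was at 443, 719 and 705 FPKM in Control and 793, 905 and 2758 in L7, and all L7 libraries lay above Control (log2 difference 1.05 ± 0.48 (SE), adjusted p = 0.580, limma). The brain form Pygb was at 49.4, 53.1 and 50.6 FPKM in Control and 54.3, 57.9 and 28.4 in L7. The liver form Pygl was at 23.7, 19.0 and 23.5 FPKM in Control and 28.2, 18.8 and 9.41 in L7. For both, L7 replicate 3 was the lowest library, while L7 replicate 1 was above every Control library.

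Phosphorylase kinase switches the phosphorylase on, through a catalytic subunit (Phkg1 in muscle) held by the regulatory subunits Phka1 and Phkb. Phka1 was at 9.87, 12.4 and 15.1 FPKM in Control and 16.4, 15.7 and 47.3 in L7, and Phkb was at 47.4, 50.9 and 49.1 FPKM in Control and 52.4, 59.1 and 106 in L7. For both subunits every L7 library lay above every Control library. Phkg1 was at 33.4, 45.8 and 59.1 FPKM in Control and 43.0, 59.0 and 187 in L7, with Control replicate 3 above L7 replicates 1 and 2; it overlaps Sumf2 in the annotation. Gys1, the synthase that extends glycogen chains in muscle, was at 93.1, 114 and 112 FPKM in Control and 128, 132 and 267 in L7, with all L7 libraries above Control (log2 difference 0.64 ± 0.29 (SE), adjusted p = 0.580, limma). Gbe1, which adds the branches, was at 7.30, 8.17 and 10.9 FPKM in Control and 8.43, 9.86 and 23.0 in L7, and the groups overlapped.

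Counted over the classes, every L7 library lay above every Control library (background 5.49%) for 6 of 13 muscle isoforms (Pfkm, Pgam2, Eno3, Pygm, Gys1 and Phka1), for 3 of 7 enzymes with 1 main gene (Gpi1, Tpi1 and Phkb) and for 0 of 12 isoforms of other tissues, and below (background 13.7%) for Pfkp alone. Without L7 replicate 3, the ratio of mean L7 to mean Control had a median of 1.22 over the muscle isoforms, with 11 of 13 above 1. It was 1.04 over the enzymes with 1 main gene, with 4 of 7 above 1, and 0.885 over the isoforms of other tissues, with 4 of 12 above 1. With L7 replicates 1 and 2 only, 11 of the 32 lay above every Control library (background 9.9%), the same 6 muscle isoforms and 3 enzymes with 1 main gene as with all libraries plus Aldoc and Pygb, and 1 lay below, Pfkp (background 15.0%). The 2 muscle isoforms under 1 were then Pfkfb1, at 0.920, and Fbp2, at 0.889.

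The 32 genes together took 1.31% to 1.62% of the reads of the Control libraries, 1.68% and 1.67% of L7 replicates 1 and 2, and 3.86% of L7 replicate 3. L7 therefore lay above Control in all 3 libraries, by a small margin in 2 of them. A ratio of 2 isoforms within a library does not depend on the scaling between libraries, so 10 pairs of a muscle isoform over another isoform of the same step were compared.

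Muscle over other isoform was higher in every L7 library than in every Control library in 6 of 10 pairs, and the same number held without L7 replicate 3. How often ratios of other genes separate in this way was not computed. Pfkm is the muscle isoform in both phosphofructokinase pairs, so the 6 are not independent of each other. The Pgam2 to Pgam1 ratio was 3.03, 5.26 and 4.39 in Control and 6.24, 7.76 and 64.6 in L7. The Eno3 to Eno1 ratio was 1.34, 2.38 and 1.82 in Control and 2.40, 3.04 and 11.7 in L7, where Control replicate 2 and L7 replicate 1 nearly met. Pfkm over Pfkl was 2.53, 4.72 and 3.58 in Control and 4.78, 5.98 and 33.8 in L7. The lowest L7 library was close to the highest Control library there too. For the transporters, Slc2a4 over Slc2a1 was 0.630, 1.23 and 0.930 in Control and 1.47, 1.38 and 19.0 in L7. The remaining separated pairs were Pfkm over Pfkp and Pygm over Pygb. Pfkm over Pfkp was 3.23, 6.48 and 4.94 in Control and 8.28, 8.91 and 49.4 in L7. Pygm over Pygb was 8.97, 13.5 and 13.9 in Control and 14.6, 15.6 and 97.2 in L7, so Control replicate 3 and L7 replicate 1 nearly met.

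As log2 differences these 6 ratios were higher by 1.83 (Pgam2), 1.30 (Eno3), 1.50 (Pfkm over Pfkl), 1.71 (Pfkm over Pfkp), 1.24 (Pygm) and 1.91 (Slc2a4). Without L7 replicate 3 they were 0.76, 0.59, 0.61, 0.87, 0.34 and 0.66 in the same order. All 6 thus kept their sign and were smaller. Each had an exact two-sided permutation p of 0.1, the smallest that 3 libraries against 3 can give, and 0.167 after Benjamini-Hochberg adjustment over the 10 pairs, so no pair could pass 0.05. Groups overlapped for Hk2 over Hk1 (exact p = 0.5), Aldoa over Aldoc (exact p = 0.8), Ldha over Ldhb (exact p = 0.4) and Pfkfb1 over Pfkfb3 (exact p = 0.3). Hk2 over Hk1 was 0.519 to 0.618 in Control, 0.587 and 0.547 in L7 replicates 1 and 2, and 1.62 in L7 replicate 3.

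**Figure D2:**
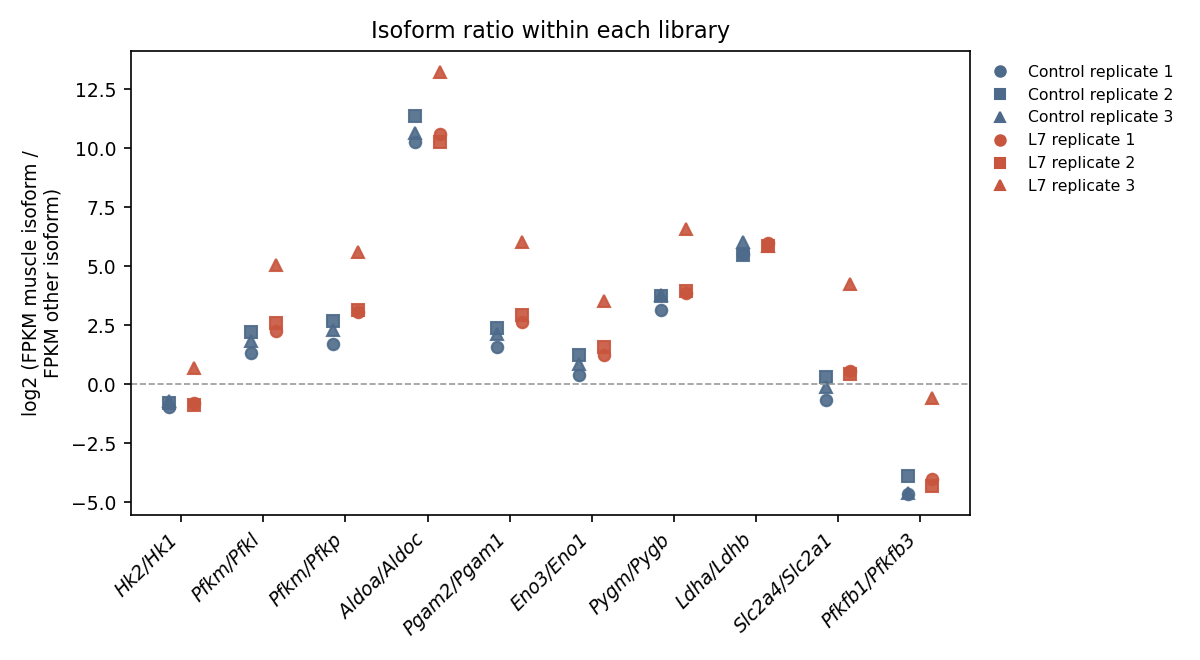
Log2 ratio of FPKM of the muscle isoform to the other isoform in each library, for 10 pairs; blue symbols are Control, red symbols are L7, and the dashed line marks equal levels. In 6 pairs the 3 red symbols all lie above the 3 blue ones, and the red triangle, L7 replicate 3, is the highest in every pair but Ldha over Ldhb.

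As shares of the summed FPKM of each family, Pfkm made up 66.4% ± 7.32 of phosphofructokinase in Control and 82.9% ± 10.8 in L7 (SD, n = 3 each). Pgam2 made up 80.2% ± 4.55 of its family against 91.1% ± 6.51, and Eno3 63.8% ± 6.61 of enolase against 79.2% ± 11.4. For Slc2a4 the share was 47.4% ± 8.32 against 70.8% ± 21.0. In these 4 of 9 families the muscle share was higher in every L7 library than in every Control library. How often shares of other gene families separate in this way was not computed. The difference in share was 16.4 percentage points for Pfkm, 10.9 for Pgam2, 15.4 for Eno3 and 23.4 for Slc2a4. Without L7 replicate 3 it was 10.2, 7.18, 8.96 and 11.4 in the same order. Some families left little room to differ: Aldoa was over 99.9% of aldolase and Ldha 98.1% of lactate dehydrogenase already in Control. Pygm held 89.1% ± 2.80 of phosphorylase in Control and 93.8% ± 4.27 in L7, with an overlap of the groups. The muscle form was under the other listed form in Control in 3 families, at 47.4% for Slc2a4, 36.3% for Hk2 and 4.73% for Pfkfb1. These sums leave out family members that are not among the 32. In Control the hexokinase Hk3 had a mean of 93.4 FPKM, Pfkfb4 of 24.2 and Pfkfb2 of 4.26, so the shares of Hk2 and Pfkfb1 in their whole families are lower.

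Promoters of the mutase and enolase pairs are shown because their isoform ratios separated the groups. Each RefSeq window (build GRCm38.p6, 250 bases before to 50 after the first listed start) is printed in the gene's direction, with every E-box CANNTG, the motif bound by myogenic factors of the MyoD family, in capitals. Pgam2 lies at chr11:5803747-5804046 (minus strand), Pgam1 at chr19:41911621-41911920 (plus), Eno3 at chr11:70656926-70657225 (plus) and Eno1 at chr4:150236458-150236757 (plus).
Pgam2: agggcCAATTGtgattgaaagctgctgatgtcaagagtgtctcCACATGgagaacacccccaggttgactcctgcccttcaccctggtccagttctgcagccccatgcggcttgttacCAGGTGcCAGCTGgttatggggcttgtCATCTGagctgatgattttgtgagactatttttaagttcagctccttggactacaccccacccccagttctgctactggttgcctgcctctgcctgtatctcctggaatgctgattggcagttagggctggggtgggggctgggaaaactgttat
Pgam1: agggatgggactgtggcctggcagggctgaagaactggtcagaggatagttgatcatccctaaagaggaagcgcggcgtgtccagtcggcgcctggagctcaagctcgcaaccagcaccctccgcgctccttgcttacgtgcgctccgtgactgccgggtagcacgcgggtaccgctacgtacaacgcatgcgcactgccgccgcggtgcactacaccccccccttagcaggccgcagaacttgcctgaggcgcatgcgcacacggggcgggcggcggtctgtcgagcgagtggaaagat
Eno3: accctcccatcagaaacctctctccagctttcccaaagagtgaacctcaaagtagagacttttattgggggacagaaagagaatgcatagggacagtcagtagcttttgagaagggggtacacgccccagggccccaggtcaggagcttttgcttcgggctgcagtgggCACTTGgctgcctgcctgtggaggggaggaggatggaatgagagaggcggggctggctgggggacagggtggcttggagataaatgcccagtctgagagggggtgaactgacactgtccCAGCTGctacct
Eno1: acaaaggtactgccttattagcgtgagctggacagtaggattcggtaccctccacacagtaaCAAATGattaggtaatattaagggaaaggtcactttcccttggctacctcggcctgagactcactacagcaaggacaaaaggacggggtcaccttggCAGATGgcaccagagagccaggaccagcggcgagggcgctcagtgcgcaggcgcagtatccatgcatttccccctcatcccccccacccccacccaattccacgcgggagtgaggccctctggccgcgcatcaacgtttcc
The Pgam2 window held 5 E-boxes, of which the one whose first base is at -125 from the start reads CAGCTG, and a match to the MEF2 motif at -80. No CANNTG was in the Pgam1 window. Eno3 had CACTTG at -81 and CAGCTG at 39, and Eno1 had CAAATG at -188 and CAGATG at -91.

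Of the 32 genes, 31 had a window in the RefSeq table, all but Slc2a4. Some genes list several starts, such as Pfkm with 4 and Eno1 with 3. Only the window of the first was searched, so the counts below depend on that choice. CAGCTG, which is one form of CANNTG, was in 6 of 12 muscle isoform windows (Gys1, Pgam2, Eno3, Fbp2, Pygm and Phka1), in 0 of 12 windows of other isoforms, in 3 of 7 of the enzymes with 1 main gene, and in 16.1% of the 27025 windows of all genes. CANNTG in any form was in 11 of 12, 6 of 12 and 6 of 7, against 72.1% of all windows. ACGTG, the core of the hypoxia response element, was found on either strand in 5 of 12 muscle windows, 6 of 12 windows of other isoforms and 2 of 7 of the rest, against 19.7% of all. The MEF2 motif was in the Pgam2 window only, against 3.26% of all. Median GC content was 55.2% in the muscle windows, 61.5% in those of other isoforms and 52.7% in all windows. A match describes these letters and is not evidence that a factor was bound.

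Muscle isoforms and fibre markers were both lowest in Control replicate 1 and highest in L7 replicate 3, while their order over Control replicates 2 and 3 and L7 replicate 1 differed. Relative to the mean of Control on the log2 scale, the mean of the 18 adult fast fibre markers was -0.38, 0.26 and 0.12 in Control and 0.19, 0.49 and 1.84 in L7. The median of the 13 muscle isoforms was -0.31, 0.10 and 0.26 in Control and 0.27, 0.35 and 1.98 in L7. The 12 isoforms of other tissues were at 0.11, -0.23 and 0.15 in Control and -0.07, -0.28 and -1.06 in L7, so their lowest library was the highest one for the muscle isoforms. All 18 fibre markers had a higher mean in L7, also without L7 replicate 3, with a median log2 difference of 0.84 and 0 passing limma. Of the 18, 8 lay above Control in every L7 library (background 5.49%).

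**Figure D3:**
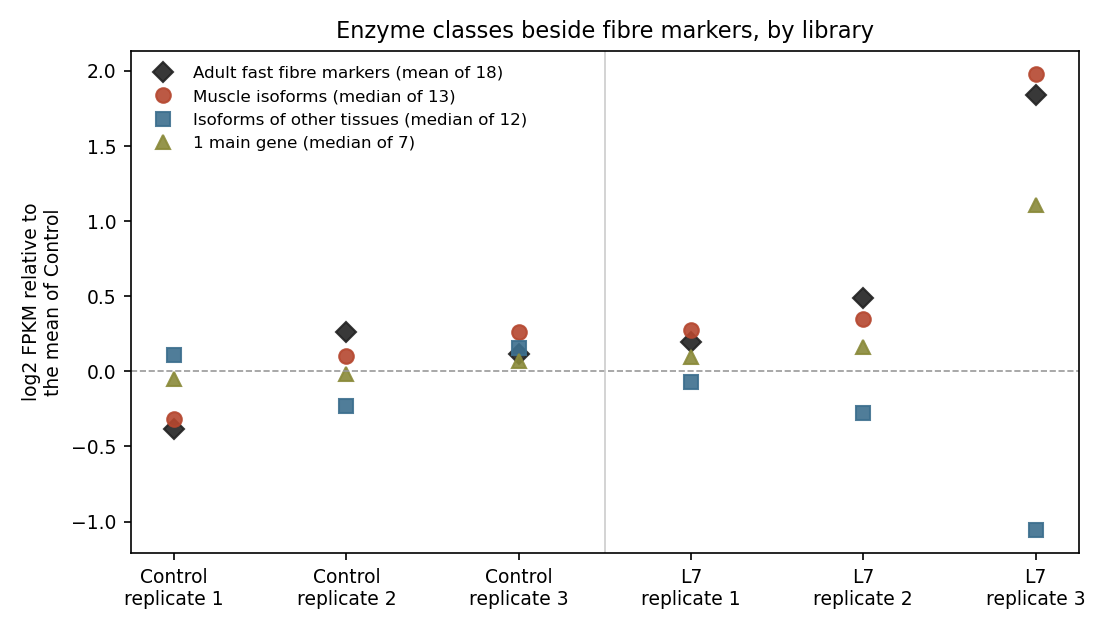
Log2 FPKM relative to the mean of Control in each of the 6 libraries: mean of the 18 adult fast fibre markers (diamonds) and medians of the muscle isoforms (circles), the isoforms of other tissues (squares) and the enzymes with 1 main gene (triangles). Circles and diamonds are both lowest in Control replicate 1, at -0.31 and -0.38, and highest in L7 replicate 3, at 1.98 and 1.84, where the squares are lowest, at -1.06.

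Expressed per fibre marker level, the difference of the muscle isoforms was small: the median over the 13 was -0.0008, the range -0.57 (Hk2) to 0.30 (Pgam2), and the groups overlapped for 13 of 13. The mean log2 level of the fibre markers, which is subtracted here, was itself 0.84 higher in L7. A gene whose own log2 difference was smaller than that is therefore negative by construction. For the isoforms of other tissues the difference per fibre marker level was negative for 12 of 12, with a median of -1.22 that was -0.52 without L7 replicate 3. Before the subtraction Ldhb and Aldoc were positive, at 0.24 and 0.23. Only Pfkp was below Control without overlap. Aldoc alone of these was positive without L7 replicate 3, at 0.30. For the enzymes with 1 main gene the median was -0.35, and -0.22 without L7 replicate 3, which was the value of Gapdh. Among the muscle isoforms Pygm differed by 0.21, Pfkm by 0.06, Eno3 by 0.06 and Aldoa by -0.0008, while Ldha differed by -0.38, and by -0.19 without L7 replicate 3. How much of the isoform differences goes with fibre content was not tested, and fibre content and isoform choice within fibres cannot be told apart in these libraries.

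Markers of several other cell types had lower means of log2(FPKM + 1) in L7, the measure of the counts and log2 differences with all libraries here. Of 12 macrophage and monocyte markers 11 had a lower mean (median log2 difference -0.29, 0 passing limma), and their summed level was 3376 to 5107 FPKM in Control and 2355 to 4816 in L7. Of 4 neutrophil markers tested 4 were lower (median -0.79), and of 5 genes of dividing cells 5 were lower (median -0.52), with summed levels of 48.0 to 297 and of 91.3 to 216 FPKM in L7 against 163 to 266 and 209.6 to 243 in Control. In each of these lists L7 replicate 3 had the lowest sum. Without it the counts are of mean FPKM, and 8 of the 12 macrophage markers had a higher mean FPKM in L7. Their median ratio of means was 0.883 with all libraries and 1.03 without L7 replicate 3, so that direction turned. For the neutrophil markers 1 of 4 was then higher (median ratio 0.950), and for the genes of dividing cells 0 of 5 (median ratio 0.929). Fibroblast markers had a median of -0.09, endothelial markers of 0.03, new fibre genes of -0.09 and erythroid genes of -0.29. New fibre genes turned as well, with a median ratio of means of 0.970 with all libraries and 1.16 without L7 replicate 3. Without that library 6 of 8 had a higher mean FPKM, and 3 of 8 (Myh3, Myh8 and Actc1) lay above every Control library (background 9.9%). Endothelial markers then had 2 of 4 higher (median ratio 0.995), fibroblast markers 1 of 6 (median ratio 0.940) and erythroid genes 0 of 5 (median ratio 0.819). Of the Schwann cell list 3 of 3 tested were higher, also without L7 replicate 3, and Adipoq, the only adipocyte marker tested, was at 0.65 ± 0.40 FPKM in Control and 1.99 ± 1.06 in L7. The part of these cells in the isoform differences was not tested.

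The same pathways contain 51 further genes listed by function, of which 44 passed the filter. Of these 28 had a higher and 16 a lower mean log2(FPKM + 1) in L7, with a median log2 difference of 0.30, and 0 passed limma. At an unadjusted p under 0.05 in limma 5 were higher (background 1.65%) and 0 lower (background 4.25%). Without L7 replicate 3, 33 of 44 had a higher mean FPKM, with a median ratio of means of 1.07, against 1.27 with all libraries. Stbd1, which binds glycogen, was at 90.6 ± 2.61 in Control and 124 ± 23.4 in L7 (FPKM), and Prkag3, the muscle subunit of AMP-activated kinase that senses energy, was at 62.8 ± 1.34 in Control and 80.4 ± 9.69 in L7. Every L7 library lay above every Control library for both. Ppp1r3c, which brings a phosphatase to glycogen, was at 16.3 ± 5.85 in Control and 31.8 ± 15.1 in L7, with overlap. Without L7 replicate 3 the ratio of means was 1.50 for Stbd1, 1.24 for Prkag3 and 1.43 for Ppp1r3c. The adjusted p in limma was 0.580 for Stbd1, 0.580 for Prkag3 and 0.580 for Ppp1r3c. In all, 10 of the 44 lay above Control in every L7 library (background 5.49%) and 1, Ppp1r3d, below (background 13.7%). Without L7 replicate 3 these numbers were 11 (background 9.9%) and 1 (background 15.0%). Stbd1 and Prkag3 were not highest in L7 replicate 3: Stbd1 was at 148, 124 and 101 FPKM in L7 replicates 1, 2 and 3, and Prkag3 at 69.2, 86.4 and 85.6.

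Gapdh, which oxidises the triose phosphate and is often used as a reference gene, is given separately, because near-identical pseudogenes held more reads than the gene itself in every library. Gapdh (chr6:125161715-125166467, minus strand) was listed at 62.0, 223 and 45.6 FPKM in Control and 104, 84.1 and 753 in L7, so that Control replicate 2 lay far above the other Control libraries, and its FPKM was under that of Tpi1, the neighbouring step, in every library. The annotation holds 74 pseudogenes that match its transcript at 95% identity or more over at least 200 bases. These took 92.3%, 75.2% and 95.3% of the combined reads in Control and 87.7%, 94.0% and 65.0% in L7. None of the other 31 genes had a pseudogene share above 3.20%.

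Parts of 3 copies with many reads are printed to show how little separates them from the gene. Each of these 3 processed pseudogenes is 1002 bases long with 1 mismatch to Gapdh, and the identical stretches run to 503, 617 and 641 bases, so reads inside those stretches hold no base that separates gene from copy. Windows of 41 bases around the mismatch are given in the direction of the Gapdh transcript, with the differing base in capitals.
Gapdh: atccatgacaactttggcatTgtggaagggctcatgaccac
Gm12033: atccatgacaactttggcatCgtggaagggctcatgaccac
Gapdh: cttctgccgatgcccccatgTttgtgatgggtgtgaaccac
Gm5559: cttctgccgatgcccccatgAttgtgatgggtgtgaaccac
Gapdh: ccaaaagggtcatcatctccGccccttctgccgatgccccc
Gm12070: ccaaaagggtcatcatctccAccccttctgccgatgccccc
Gm12033 lies at chr11:20335012-20336013 (minus strand), Gm5559 at chr5:95861714-95862715 (plus) and Gm12070 at chr11:26786633-26787634 (plus) in the GENCODE M21 annotation of mm10.

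Assignment among these copies varied between libraries of 1 group. Gm12033 had 10638, 7876 and 15100 reads in Control and 7876, 11096 and 3728 in L7, the fewest in L7 replicate 3. Gm5559 had 831, 952 and 1245 reads in Control and 1167, 10944 and 14133 in L7, so L7 replicate 1 resembled Control. Gapdh itself had 1226, 4104 and 1064 reads in Control and 2183, 1649 and 15085 in L7. Summed over Gapdh and all its pseudogene copies, the libraries held 762, 851 and 908 RPM (reads scaled to a common total of reads in genes) in Control and 798, 1327 and 2035 in L7. The groups overlapped, with L7 replicate 1 inside the Control range. The means were 840 ± 73.6 and 1387 ± 621 (SD, n = 3 each), a ratio of 1.65 with an exact permutation p of 0.3, and the ratio without L7 replicate 3 was 1.26. For Gapdh alone the ratio of means was 2.84, and 0.853 without L7 replicate 3.

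**Figure D4:**
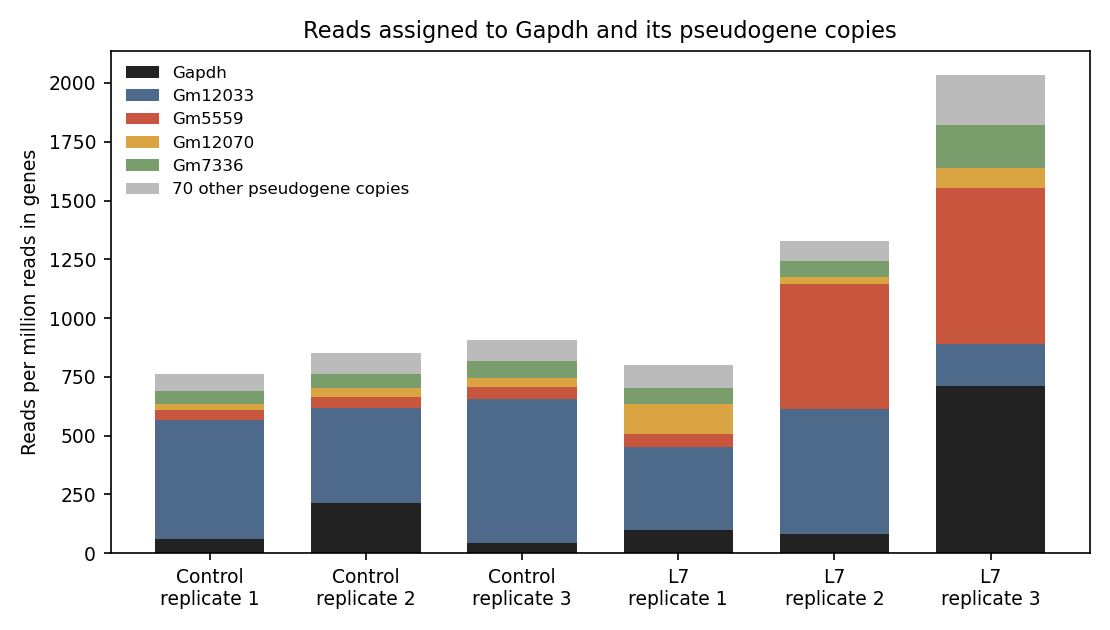
RPM (reads scaled to a common total of reads in genes) assigned to Gapdh (black), to its most abundant pseudogene copies (colours) and to the other pseudogene copies (grey), stacked for each library. The whole bar runs from 762 to 908 in Control and from 798 to 2035 in L7, and the black part is the smaller share of every bar.

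The authors' deposited pathway table lists the KEGG term for glycolysis and gluconeogenesis with 6 genes out of 65 (p = 0.00701, corrected p = 0.0936). In the annotation 5 of these 6 are processed pseudogenes, Gm12070, Gm5523, Gm5559, Gm12419 and Gm17068, and the remaining one is Pfkp. Of the pseudogenes, Gm5559 had the largest difference in the authors' deposited table, at 10.8-fold higher in L7 with a p of 0.0290 and an adjusted p of 1. Gm12419 and Gm17068 rested on 1 to 12 and 2 to 22 reads per library. The term for the glycolytic process in the authors' deposited Gene Ontology table had 2 genes, Pfkp and Htr2a, and a corrected p of 1.

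Near-identical copies of the other genes were small beside them. Eno1b is 99.5% identical to Eno1 over the aligned bases and had 130 to 885 reads per library, against 11218 to 24680 for Eno1, and adding it left the Eno3 to Eno1 ratio separated between the groups. Pgam1-ps2 had 25 to 132 reads, against 1099 to 4358 for Pgam1, and Pgk1-rs7 had 87 to 229 reads. Gys1 shares annotated exon sequence with Ruvbl2, and without a stated strand setting reads from such overlaps cannot be told apart.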

How the data were processed

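Poly(A) RNA was sequenced from 6 libraries, 3 per group, prepared with NEBNext Ultra RNA reagents per the labels' protocols. The authors deposited 1 table of FPKM per gene and library and 1 comparison table, which per the file headers gives for each gene the normalised mean signal of both groups, their log2 fold change and its p-value, unadjusted and adjusted. The submitters' processing notes name mm10, DESeq 1.12.0, HISAT2 2.0.4, TopHat2 2.0.12 and Bowtie2 2.2.3 without tying a tool to a value. Deposited term tables were read for numbers of genes and their p-values.

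Identifiers were matched to GENCODE M21, which gave a symbol for 51633 of 52369 genes. Whole reads were recovered from the spacing of low FPKM values together with the deposited group means (152096 of 152096 values above 0 within 0.05 of a whole number) and gave 19420012 to 24663153 reads in genes per library. Genes averaging at least 1 FPKM (14788) were fitted in R 4.3.3 with limma 3.58.1, using its mean-variance trend, log2(FPKM + 1) and the group as sole factor. P-values are two-sided and adjusted by Benjamini-Hochberg, with a threshold of 0.05. The script was tested on simulated data. Isoform ratios had exact permutation tests. Copies were found with BLAST 2.17.0. Medians and counts over lists have no test.

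The 32 genes, the lists and the pairs were chosen with earlier results of these data known. All 32 are named, and of the 51 further pathway genes those passing limma or, with none, the 4 with the smallest p, of which 1 is not reported here. Markers named are mainly the most abundant of their list. Tnnc2, Adipoq, Myh3, Myh8, Actc1, Ppp1r3d and the pseudogenes Gm12033, Gm5559, Gm12070, Gm5523, Gm12419 and Gm17068 were named after their values were seen. So were Hk3, Pfkfb2, Pfkfb4 and Xist. Alternatives were other pseudocounts, filters and scalings, array weights, a Y-linked covariate, voom on reads, the deposited table, the replicate block and leaving out each library. Adding Eno1b to Eno1 and summing Gapdh with its copies were chosen after seeing the data. Coordinates are mm10, 1-based. Human disease and enzyme roles are background knowledge.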

Additional observations from a re-analysis of the deposited data

How the results depend on the processing

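No alternative called any of the 32 genes or of the 44 further pathway genes tested. Over all genes, limma called 3 with array weights, 1 without L7 replicate 1 and 1 without L7 replicate 3 under median-of-ratios scaling (range over libraries left out 0 to 1), and the authors' deposited table has 9 at an adjusted p under 0.05. The median log2 difference of the muscle isoforms ran from 0.29 to 1.12 when 1 library was left out, was 1.02 with median-of-ratios scaling, 0.40 with array weights and 1.38 in the deposited table. For the isoforms of other tissues it ran from -0.64 to -0.18, and for the enzymes with 1 main gene from 0.12 to 0.66. The 0.12 was the value of Gapdh.

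Single genes reversed as follows, and the cause was not tested. With array weights the log2 difference was 0.12 for Hk1, -0.032 for Pfkfb1, -0.017 for Gapdh, -0.052 for Pgk1, -0.11 for Ldhb, 0.0075 for Pygl and 0.11 for Pygb. Without L7 replicate 3 under median-of-ratios scaling it was 0.11 for Hk1, -0.067 for Pfkfb1, -0.072 for Pgk1, -0.056 for Ldhb, 0.10 for Pygl and 0.16 for Pygb. In the deposited table Pygb was at 0.0063. With 1 library left out the ranges were -0.040 to 0.41 for Aldoc, -0.41 to 0.075 for Hk1, -0.091 to 0.97 for Pfkfb1, -0.0067 to 1.16 for Fbp2, -0.10 to 0.39 for Pgk1, -0.0091 to 0.40 for Pkm, -0.087 to 0.41 for Ldhb, -0.68 to 0.067 for Pygl and -0.37 to 0.13 for Pygb, and for log2 ratios -0.0049 to 0.78 for Hk2 over Hk1 and -0.32 to 1.15 for Aldoa over Aldoc. Pairs separated between the groups numbered 6 to 7 of 10 and muscle shares 4 to 6 of 9.

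Deviations of same-numbered libraries correlated at r = 0.32, -0.07 and 0.09, and those of differently numbered ones at -0.35 to 0.22. With 3 libraries per group these values cannot tell whether the numbers pair the libraries. With the replicate number as a block, limma called 0 genes and 0 of the 32, the medians stayed at 0.84, -0.37 and 0.48, 6 of 10 pairs were higher in L7 within every number, and 5 of 9 muscle shares were. Depth limits Aldoc, Pfkfb1 and Fbp2 most.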
